A study of Mus musculus with 388 samples.

Results

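The 10 genes described here are the fibroblast growth factor (FGF) receptors Fgfr1, Fgfr2 and Fgfr3, the ligand Fgf7, and 6 genes that read out or restrain the ERK branch of the pathway: Dusp6, Spry1, Spry2, Spry4, Etv4 and Etv5. They were chosen by symbol from the 25000 genes of a single-cell expression table, and all 10 were found there, each once. FGF ligands bind receptor tyrosine kinases at the cell surface, and the receptors pass the signal through adaptor proteins and RAS to the kinases RAF, MEK and ERK. Cells in which ERK is active commonly transcribe inhibitors of the same route, so these genes are widely used as a readout of it. In bone, FGF receptor signalling is known for its effects on chondrocytes and osteoblasts, and loss or gain of receptor function changes skeletal growth in mice.

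The cells came from the bone marrow of C57BL/6 mice of the genotype KitMerCreMer; R26tdTomato, in which a tamoxifen-inducible Cre made from the Kit locus switches on a tdTomato reporter at Rosa26. Tamoxifen was given at E12.5 and E14.5, so Tomato+ cells descend from fetal cells that expressed Kit, and Tomato- cells from cells without Kit or from Kit-expressing cells that did not recombine. At 2 months of age, stromal cells negative for CD45, Ter119 and CD31 and positive for PDGFRα were sorted and sequenced one by one, 388 cells in all. Both groups share strain, genotype, treatment and age, and the titles place the cells in 8 sets within 2 title orders.

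After 2 shallow cells were left out, 386 remained. Order 1 held the Tomato+ sets P1 (94 cells), P2 (5 cells) and P3 (38 cells) and the Tomato- set N2 (60 cells). Order 2 held the Tomato+ sets P1 and P2 (24 cells each) and the Tomato- sets N1 (71 cells) and N2 (70 cells). Kept cells held 18031 to 3833473 counts. The labels name no animal. Each group is therefore 1 sample without replicates, no test was made, and intervals are 95% intervals for counting error alone. The labels mention no molecular identifiers, so reads cannot be taken as independent molecules. Lepr and Cxcl12, markers of perivascular marrow stroma, were high in both groups, with median levels of 3583 and 4190 CPM (counts scaled to 1e+06 per cell or per sum) for Lepr in Tomato+ and Tomato- cells. An exception was the Tomato+ set P2 of order 1 (5 cells), with a median Lepr level of 84.5 CPM. Some libraries of order 1 stood apart. The median number of genes with 5 or more counts was 1344 in the Tomato- set N2, 596 in the Tomato+ set P2 (5 cells) and 1673 in the Tomato+ set P3, against 2684 in the Tomato+ set P1 and 3127 to 3796 in the sets of order 2. The Tomato- cells of order 1 all belong to N2, whereas most Tomato+ cells of that order belong to P1. In order 1 the housekeeping gene Gapdh had median levels of 16.2 CPM in N2, 6.89 in P2, 2.37 in P3 and 282 in P1. In the sets of order 2 its medians ran from 330 to 461 CPM. Differences between the groups in order 1 therefore coincide with a difference in the number of genes met per cell, whose part in them was not tested.

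Compared per kilobase of exon, Spry1 and Fgf7 were the most abundant of the 10 transcripts and Etv4 the least. The length used is the union of all annotated exons, which can exceed any single transcript, so the order depends on it. Without length scaling Fgfr2 led, at 326 CPM over all cells, before Fgf7 (303 CPM) and Spry1 (268 CPM). Over the 7 title sets with 20 or more cells, the median level of Spry1 was 97.9 CPM per kilobase, with a range over sets of 12.3 to 165.9. Fgf7 followed at 79.4 (46.6 to 133.3) and Dusp6 at 46.2 (6.49 to 71.8). Spry2 lay at 33.8 (9.79 to 68), Fgfr2 at 31 (19.3 to 41.6) and Spry4 at 25.6 (3.29 to 32.9). Fgfr1 lay at 11.7 CPM per kilobase (10.6 to 34.2), Fgfr3 at 5.51 (1.59 to 14.2) and Etv5 at 5.40 (0.26 to 20.3), while Etv4 had a median of 0 (0 to 1.2). The ranges of neighbours in this order overlapped in every case. Fgf7 was high in each of these 7 sets by this measure. Its lowest set lay above the highest set of Fgfr2, Spry4, Fgfr1, Fgfr3, Etv5 and Etv4, which was not so for Spry1. In the 5 cells of P2 of order 1, left out here, Fgf7 stood at 1.84 CPM per kilobase.

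**Figure D1:**
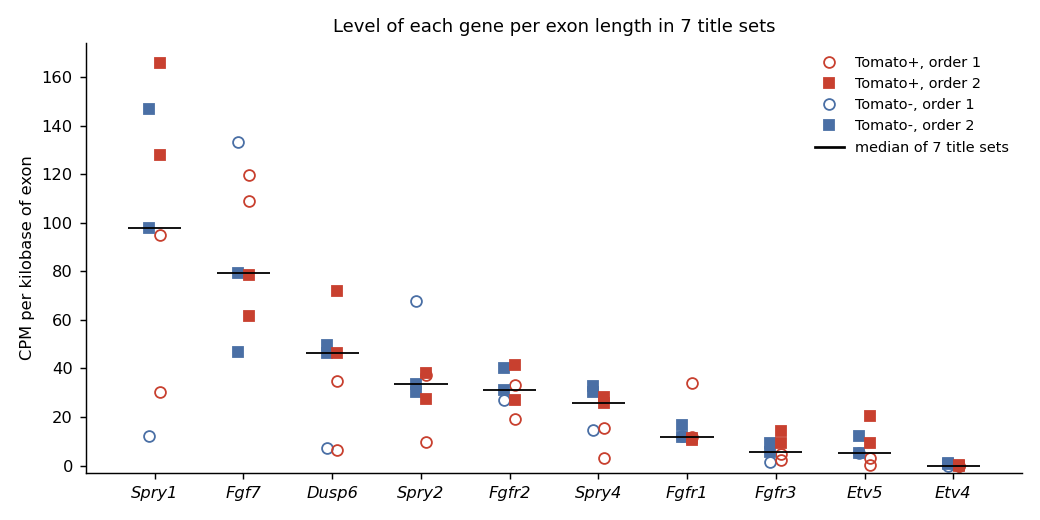
Level of each gene in CPM per kilobase of exon (vertical axis) in the 7 title sets with 20 or more cells; red marks Tomato+ and blue Tomato- sets, open circles order 1 and filled squares order 2, and the black line is the median of the sets. Spry1 spans 12.3 to 165.9 CPM per kilobase, with its lowest value in the Tomato- set of order 1, whereas Fgfr2 stays between 19.3 and 41.6.

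The ligand Fgf7, a paracrine factor made by mesenchymal cells that acts mainly through an epithelial splice form of Fgfr2, lies on chromosome 2 (126034658 to 126091185 of GRCm38, plus strand). In order 1 single cells ran from 0 to 3467 CPM with a median of 260 in Tomato+, and from 0 to 10536 CPM with a median of 56.7 in Tomato- cells. In order 2 they ran from 0 to 1682 CPM (median 161.5) in Tomato+ and from 0 to 991 CPM (median 144.7) in Tomato- cells. The groups overlapped in both orders, and the highest cells were Tomato- cells of order 1. Ratios are given throughout as Tomato+ over Tomato-, from the summed counts of each group in an order. For Fgf7, Tomato+ and Tomato- sums gave 373 versus 433 CPM in order 1 and 224 versus 198.6 CPM in order 2, which are log2 ratios of -0.21 and 0.17. Fgf7 reached 5 counts in 292 of the 386 cells.

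None of the 21 other FGF ligand genes passed the filter on low values, which asks, in either group, for 20 CPM as the mean of both orders and a count in 20% of its cells. The 2 most abundant of them per kilobase were Fgf1 and Fgf11. Fgf1 had 7.73 versus 15.6 CPM in order 1 and 19.5 versus 23 CPM in order 2, and Fgf11 had 11.7 versus 3.53 CPM and 0.55 versus 3.18 CPM, Tomato+ first. Fgf1 passed the 20 CPM in Tomato- cells of order 2 and not in the mean of both orders.

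Among the receptor genes, Fgfr2 was met in the most cells. Fgfr2 lies on chromosome 7 (minus strand), where its annotated record, from 130162451 to 133123350, overlaps exons of Ctbp2 on the same strand. In order 2 its level ran from 1.71 to 1101 CPM (median 297) over Tomato+ cells, and from 0 to 2613 CPM (median 337) over Tomato- cells. In order 1 it ran from 0 to 2041 CPM (median 200) in Tomato+ and from 0 to 2122 CPM (median 22.6) in Tomato- cells. In order 1 the highest cells of both groups were alike, while the median cell was lower in Tomato-. Summed levels were close, with 303 versus 281 CPM in order 1, 345 versus 363 CPM in order 2, and log2 ratios of 0.11 and -0.08. The direction of these small ratios depended on the setting: the mean over orders took the other sign in 7 of 22 alternatives.

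Fgfr1 (chromosome 8, 25513654 to 25575718, plus strand; an antisense gene, Gm16159, overlaps its exons) differed between the groups in order 1 and not in the same direction in order 2. Single Tomato+ cells of order 1 ran from 0 to 1088 CPM (median 136.02), and Tomato- cells from 0 to 768 CPM (median 11.3). Order 2 gave 0 to 525 CPM (median 81.5) in Tomato+ and 0 to 793 CPM (median 106.3) in Tomato- cells. The sums came to 281 versus 121.4 CPM in order 1, a log2 ratio of 1.20, and to 110.1 versus 136.4 CPM in order 2, a log2 ratio of -0.31. Without the set P1 the order 1 ratio was -0.19, so its direction rested on that set.

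Fgfr3 (chromosome 5, 33721674 to 33737068, plus strand), a receptor known for restraining growth plate chondrocytes, was the rarest of the 3 receptors in number of cells and was higher in Tomato+ cells by summed counts. In order 1 the highest Tomato+ cell held 638 CPM and the highest Tomato- cell 691 CPM, and the median was 0 in both groups. In order 2 cells ran from 0 to 618 CPM (median 2.70) in Tomato+ and from 0 to 423 CPM (median 1.54) in Tomato- cells. Order 1 summed to 29.3 CPM (28.3 to 30.3) versus 11.4 CPM (10.3 to 12.6) and order 2 to 86.5 CPM (83.3 to 89.9) versus 51.1 CPM (49.7 to 52.6), with log2 ratios of 1.29 and 0.75. These intervals cover reads, not cells: a lone cell supplied 67.4% of the order 1 counts in Tomato- cells. A count of Fgfr3 was found in 32.8% of Tomato+ cells, versus 20% of Tomato- cells, in order 1. Within order 2 the Tomato+ sets stood at 66.4 CPM (P1) and 101.7 CPM (P2) and the Tomato- sets at 65.8 CPM (N1) and 39.4 CPM (N2). With each cell thinned to 150000 counts, 50% of Tomato+ and 43.7% of Tomato- cells of order 2 had a count, against 64.6% and 56% before thinning.

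At 5 or more counts, 330 of 386 cells (85.5%, 81.6 to 88.9) carried at least 1 of the 3 receptors. Over all cells the commonest combination was Fgfr1 with Fgfr2, in 38.6% (33.7 to 43.7), followed by all 3 receptors in 17.6% and Fgfr2 alone in 16.6%. Fgfr1 alone was met in 5.44% of cells, and Fgfr3 without another receptor in 1 cell. This ranking changed by set. Fgfr1 with Fgfr2 made up 61.7% of P1 of order 1, while cells without a receptor were commonest in N2 (38.3%) and P3 (52.6%) of order 1. In Tomato+ cells of order 2 all 3 receptors (33.3%) were commoner than Fgfr1 with Fgfr2 (27.1%). Of the 96 cells with Fgfr3, 91 also held 5 or more Fgfr2 counts. In order 2 these were 95.2% (Tomato+) and 96.3% (Tomato-) of the cells with Fgfr3, close to the 93.8% and 89.4% of all cells there that held Fgfr2. By order, a receptor was found in 97.9% of Tomato+ cells and in 93.6% of Tomato- cells in order 2 (intervals 88.9 to 99.9 and 88.2 to 97), and in 83.2% and 61.7% in order 1 (75.9 to 89 and 48.2 to 73.9). Within order 1 the Tomato+ cells themselves split: 0 of 94 cells of P1 lacked a receptor, which allows a share of up to 3.19%, against 52.6% of the 38 cells of P3. The level of Fgfr2 was above that of Fgfr1 in 66.3% of the 329 cells with either (60.9 to 71.4). By order the share was 50% in Tomato+ and 58.3% in Tomato- cells of order 1, with 46.8% in its set P1, and 78.7% and 78% in order 2. Fgf7 and Fgfr2 were met together in 65.3% of cells. Each was common by itself: Fgf7 reached 5 counts in 75.6% and Fgfr2 in 78.8% of cells. The joint share ran from 34.2% in P3 to 81.9% in P1 of order 1 over the sets with 20 or more cells. Counts per gene do not separate the splice forms of Fgfr2.

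**Figure D2:**
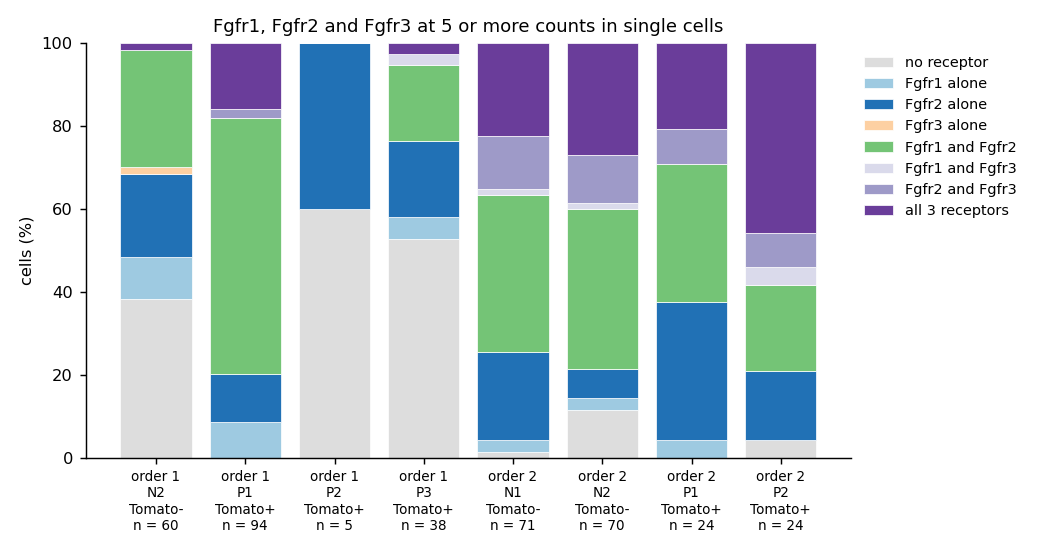
Share of cells (vertical axis, percent) in each combination of Fgfr1, Fgfr2 and Fgfr3 at 5 or more counts, by title set, with the number of cells under each bar. Cells without a receptor make up 0 to 11.4% of the sets of order 2 and of the set P1 of order 1, and 38.3 to 60% of the other sets of order 1.

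The feedback inhibitors act at different levels: Dusp6 encodes a phosphatase that acts on ERK itself, and the Sprouty proteins encoded by Spry1, Spry2 and Spry4 restrain receptor signalling upstream of ERK. The stretches of 250 bases just before the annotated starts of Dusp6, Spry1 and Spry2 are shown. By summed counts Dusp6 and Spry1 were higher and Spry2 lower in Tomato+ cells of order 1. For Dusp6 a single Tomato+ cell supplied 57.1% of these counts. The stretches are RefSeq sequences on GRCm38.p6, read 5′ to 3′ on the gene's strand. They lie at chr10:99262981-99263230 (plus), chr3:37639697-37639946 (plus) and chr14:105896820-105897069 (minus). Capitals mark AGGAAG on either strand, a hexamer holding the GGAA core bound by ETS factors, the family of Etv4 and Etv5.
Dusp6: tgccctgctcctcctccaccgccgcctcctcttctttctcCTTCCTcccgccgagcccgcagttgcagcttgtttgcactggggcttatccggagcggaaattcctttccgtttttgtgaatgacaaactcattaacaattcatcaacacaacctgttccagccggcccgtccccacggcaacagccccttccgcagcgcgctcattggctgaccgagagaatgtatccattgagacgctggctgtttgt
Spry1: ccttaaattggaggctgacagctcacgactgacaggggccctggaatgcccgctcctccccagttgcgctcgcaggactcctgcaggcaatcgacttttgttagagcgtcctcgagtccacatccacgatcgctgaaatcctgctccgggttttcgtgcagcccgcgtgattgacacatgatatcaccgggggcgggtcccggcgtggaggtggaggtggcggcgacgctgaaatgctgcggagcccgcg
Spry2: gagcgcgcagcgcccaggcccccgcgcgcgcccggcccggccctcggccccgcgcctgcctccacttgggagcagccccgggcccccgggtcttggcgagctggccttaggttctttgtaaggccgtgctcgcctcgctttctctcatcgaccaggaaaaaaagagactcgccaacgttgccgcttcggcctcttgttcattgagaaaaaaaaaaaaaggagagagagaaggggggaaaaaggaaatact
The hexamer occurs in 1 place before Dusp6, read on the opposite strand as CTTCCT, and not in these windows of Spry1 and Spry2. RefSeq promoter windows, 9 in all, were found by symbol for 7 of the 10 genes. Of these 9, 1 of Fgfr2 and 1 of Dusp6 hold the hexamer, against 29.5% of all 32851 windows of that length. The Fgfr2 window (chr7:130266809-130267058, minus) did not match the annotated Fgfr2 transcripts. A window of Etv5 (chr16:22438369-22438618, minus) did not match those of Etv5 either. Both windows lie inside the annotated records of their genes and not at the starts. CCGGAA, another ETS-type hexamer, which cannot share its GGAA with AGGAAG on the same strand, was in 0 of the 9 and in 12% of all windows. Such matches describe letters and not binding sites.

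Spry1 showed the widest difference of the 10 genes in order 1 and little in order 2. Tomato+ cells of order 1 ran from 0 to 1610 CPM with a median of 9.19, and Tomato- cells from 0 to 427 CPM with a median of 4.94. In order 2, the values were 1.82 to 1662 CPM (median 296) in Tomato+ and 0 to 2862 CPM (median 263) in Tomato- cells. Spry1 thus reached the higher values in all sets of order 2 and in P1 of order 1, and both groups overlapped throughout in order 2. Order 1 summed to 228 CPM (225 to 230) versus 35.8 CPM (33.8 to 37.9) and order 2 to 419 CPM (412 to 426) versus 348 CPM (344 to 351), with log2 ratios of 2.63 and 0.27. Without the set P1 the ratio in order 1 was 1.16. In order 2, all 24 cells of P1 held 5 or more Spry1 counts.

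Dusp6 was patchy from cell to cell. In order 1 its median was 0 in both groups, and the highest Tomato+ and Tomato- cells held 1439 and 297 CPM. In order 2 it ran from 0 to 1342 CPM (median 13.5) in Tomato+ and from 0 to 2058 CPM (median 19.8) in Tomato- cells. In order 2, 47.9% of Tomato+ cells and 48.2% of Tomato- cells held 20 or more counts. Summed, it gave 86.8 versus 23.3 CPM in order 1 and 190.5 versus 150.8 CPM in order 2, with log2 ratios of 1.85 and 0.34. A single Tomato+ cell supplied 57.1% of its group's counts in order 1, and without the cell with the most counts of the gene in each group and order the ratios were 1.06 and 0.21. Without the set P1 the ratio of order 1 was -0.29. In order 1, 14.6% of Tomato+ cells (9.15 to 21.6) reached 5 counts, versus 16.7% of Tomato- cells (8.29 to 28.5), and 54.2% (39.2 to 68.6) and 51.8% (43.2 to 60.3) of order 2.

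Spry2 was lower in Tomato+ cells of order 1 and alike in order 2. Single cells of order 1 ran from 0 to 3498 CPM (median 7.31) in Tomato+ and from 0 to 6673 CPM (median 34.97) in Tomato- cells. Order 2 gave 0 to 312 CPM (median 46.9) and 0 to 515 CPM (median 49.2). In sums, 40.1 CPM stood against 141.9 CPM in order 1 and 66.7 against 67.3 in order 2, with log2 ratios of -1.80 and -0.01. With P1 left out, the order 1 ratio was -0.50. Within order 1 the Tomato+ sets themselves were far apart, with 20.4 CPM in P1, 77.8 in P3 and 362 in the 5 cells of P2, where 1 cell held 79.1% of the counts. The sets with the highest Spry2 levels, P2 and N2 of order 1, were those with the lowest Spry1 levels (5.05 and 35.8 CPM), and also those with the fewest genes at 5 or more counts per cell.

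Spry4 summed to 58.7 CPM in Tomato+ versus 70.1 CPM in Tomato- cells in order 1 and to 128.8 versus 151.2 CPM in order 2, with log2 ratios of -0.25 and -0.23. Single cells of order 2 ran from 0 to 497 CPM (median 97.5) in Tomato+ and from 0 to 1307 CPM (median 67.9) in Tomato- cells, so that the lower sum and the higher median fell to the same group. In order 1, 36.4% of the Tomato- counts came from a lone cell, and without the top cell of each group and order the ratio of order 1 was 0.11. It was -2.20 without the set P1, so both its size and its direction depended on a few cells or a set. Spry4 reached 5 counts in 31.4% of Tomato+ cells (23.7 to 39.9) versus 16.7% of Tomato- cells (8.29 to 28.5) in order 1, and in 70.8% (55.9 to 83.1) and 65.2% (56.8 to 73.1) of order 2.

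At least 1 of Spry1, Spry2 and Spry4 reached 5 counts in 340 cells (88.1%, 84.4 to 91.1), and all 3 did in 30.1% of cells. All 3 together occurred in 52.1% of the Tomato+ cells and 51.8% of the Tomato- cells of order 2, and in 11.7% and 3.33% in order 1. With Dusp6 added, 4 of the 4 inhibitors occurred together in 31.2% of Tomato+ cells (18.7 to 46.3), versus 27.7% of Tomato- cells (20.5 to 35.8), in order 2.

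Etv4 and Etv5 encode ETS transcription factors of the same subfamily, whose transcription commonly follows FGF signalling. Etv4 (chromosome 11, 101769742 to 101785371, minus strand) had a count in 2 Tomato+ and 9 Tomato- cells, all of order 2. In order 1 it was at 0 in every Tomato+ and Tomato- cell, which allows shares of cells with a count of up to 2.19% and 5% and sets no limit on cells that express it. Etv5 (chromosome 16, 22381309 to 22439719, minus strand) had a median of 0 CPM in both groups of both orders, and its highest cells held 630 CPM (Tomato+) versus 492 CPM (Tomato-) in order 1 and 525 versus 470 CPM in order 2. Order 1 summed to 9.88 versus 21.4 CPM and order 2 to 64 versus 37.5 CPM, so that the log2 ratio was -1.04 in one order and 0.76 in the other. Single cells carried much of this: 1 Tomato- cell supplied 56.6% of its group's counts in order 1. Leaving out the set P1 gave an order 1 ratio of -3.48. Within order 2 the Tomato+ sets stood at 38.3 and 83.4 CPM and the Tomato- sets at 22.2 and 49.8 CPM, so the groups overlapped.

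**Figure D3:**
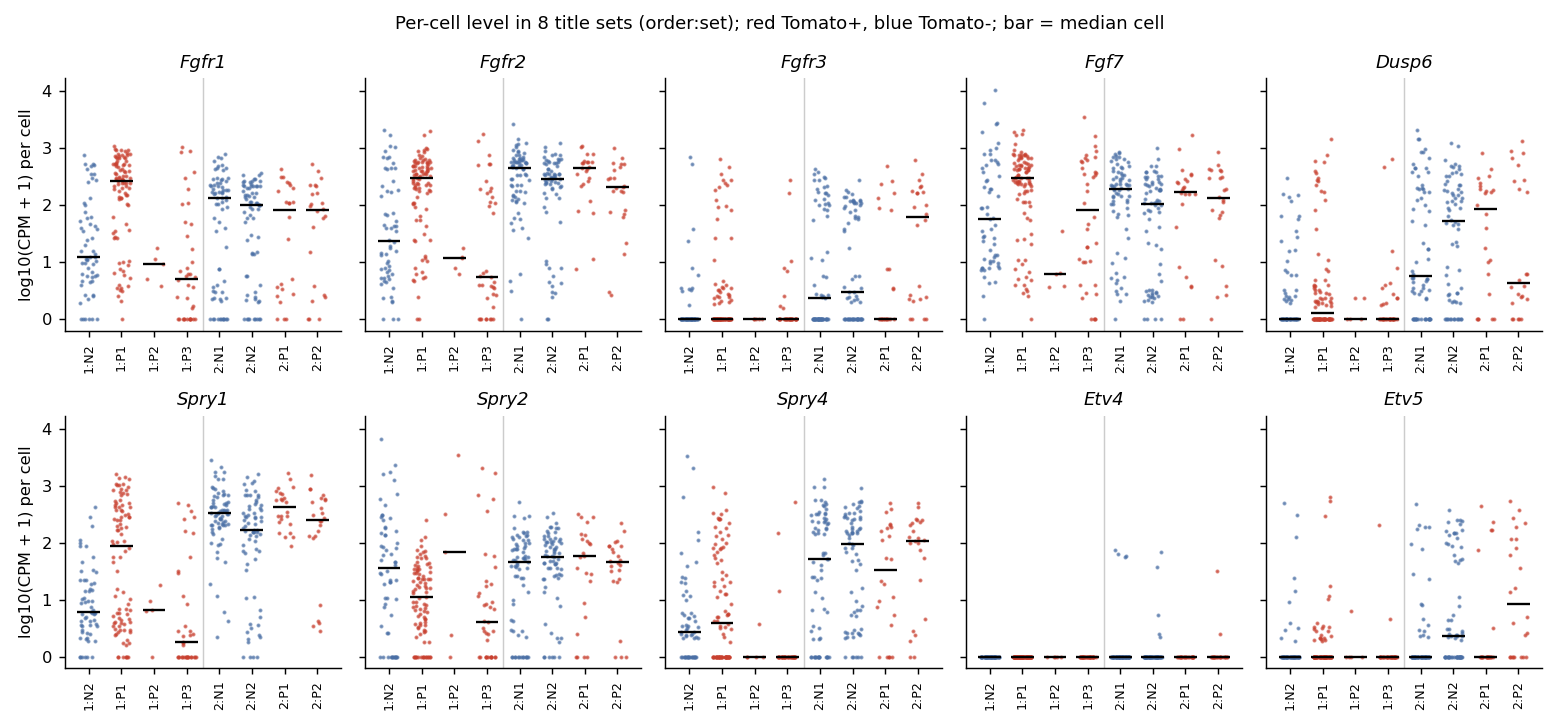
Level of each gene in single cells as log10(CPM + 1) (vertical axis) in the 8 title sets, named by order and set along the horizontal axis; each point is a cell, red for Tomato+ and blue for Tomato-, and the black bar is the median cell. Fgfr3, Dusp6 and Etv5 have many cells at 0 beside cells above 100 CPM, and the medians of Spry1 in order 2, from 165.5 to 422 CPM, lie above all those of order 1.

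Read across both orders, 1 of the 9 genes that passed the low-value filter met the rule of size used for all genes. The rule asks for more than 1.5-fold in the same direction in both orders, on the log2(CPM + 1) scale, which understates changes of low genes, with the same sign when per-cell levels are averaged. Fgfr3 met it, with a mean log2 ratio of 1.02, and Etv4 was the gene that did not pass the filter. Over all 6681 genes tested, 3.34% met it as higher and 4.58% as lower in Tomato+ cells. Fgfr3 no longer met it without the set P1 of order 1, at ratios of 0.41 and 0.75, or without P2 of order 2, at 1.29 and 0.37. Leaving out N2 of order 2 gave 1.29 and 0.39, and removing the cells in which Ptprc or Pecam1 reached 5 counts gave 1.35 and 0.37. Ptprc and Pecam1 encode CD45 and CD31, which the sort excluded. Summing both orders gave a ratio of 0.03.

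Within order 1 alone, 4 of the 9 genes were over 1.5-fold higher in Tomato+ cells (Fgfr1, Fgfr3, Dusp6 and Spry1), where 27.6% of all genes tested were, and 2 were lower (Spry2 and Etv5), where 24.5% were. In order 2 the counts were 2 higher (Fgfr3 and Etv5; background 9.37%) and 0 lower (background 14.2%). The median log2 ratio over the 9 genes was 0.11 in order 1 and 0.17 in order 2, against 0.02 and -0.01 over all genes tested.

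In order 1, 7 library codes in the column names of the table hold cells of both groups, with 2 to 12 Tomato- cells in each. Taken apart by code, a description chosen after the data were seen, Fgfr1 was higher in Tomato+ cells in 7 of 7 codes (log2 ratios 0.26 to 5.67), Spry1 in 7 of 7 (0.28 to 4.88) and Fgfr3 in 7 of 7 (0.01 to 6.06). Spry2 was lower in 7 of 7 (-4.62 to -0.30). Of all genes tested, 5.43% were higher in every code and 0.434% lower. Dusp6 was higher in 3 and lower in 4 codes, Fgf7 higher in 4 of 7, Fgfr2 and Etv5 in 5 of 7, and Spry4 in 6 of 7. The Tomato+ cells in these codes are all of P1 and the Tomato- cells all of N2, so the codes compare the same sets, and the part of genes met per cell was not tested.

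**Figure D4:**
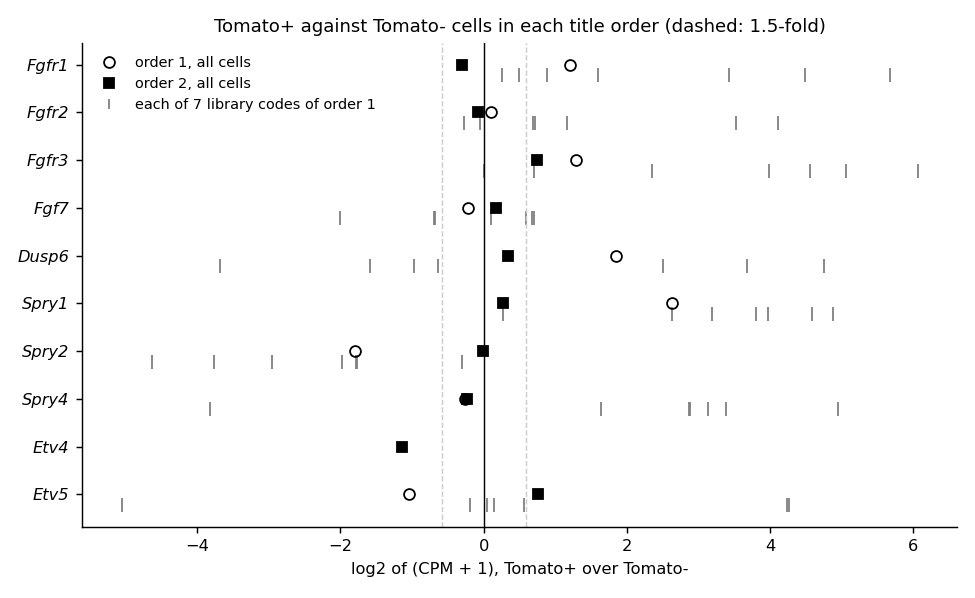
Log2 ratio of CPM + 1, Tomato+ over Tomato- (horizontal axis), for each gene in order 1 (open circles), in order 2 (filled squares) and within each of the 7 library codes of order 1 that hold both groups (grey ticks); dashed lines mark 1.5-fold, and Etv4 has no count in order 1. The order 2 ratios of the other 9 genes lie between -0.31 and 0.76, whereas those of order 1 lie between -1.80 and 2.63.

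The sort excluded CD45, yet 12 Tomato- cells of order 2 held 5 or more counts of Ptprc. Myeloid reads were not confined to these 12. At least 3 genes of a myeloid list reached 5 counts in 52 of 71 N1 cells and 58 of 70 N2 cells of order 2. At least 3 genes of a stroma list did so in every cell of both sets, the 12 included, and in every other kept cell. Because all kept cells passed, this count cannot tell stromal cells from others, and whether the 12 are stromal was not tested. The share with 5 or more counts of Spry1 was 8.33% in the 12 Ptprc cells (0.21 to 38.5). It was 95% (89.4 to 98.1) in the 120 Tomato- cells of order 2 with under 5 counts of Ptprc and Pecam1. These 120 were chosen by those 2 genes alone and include cells with myeloid reads. Fgf7 was met in 8.33% and 81.7%, Fgfr1 in 8.33% and 73.3%, and Fgfr2 in 33.3% and 95%. Spry4 reached 5 counts in 25% (5.49 to 57.2) and 70% (61 to 78). Dusp6 did so in 58.3% (27.7 to 84.8) and 51.7% (42.4 to 60.9), and Spry2 in 50% and 76.7%. How many other genes differ between these cells was not counted. The Ptprc cells were not shallower, with a median of 853826 against 640622 counts. Thinning to 150000 counts kept 11 of the 12 Ptprc cells and not all of the 120 others. The shares with any count, rather than 5, were then 36.4% and 96.5% for Spry1, 36.4% and 87% for Fgf7, and 27.3% and 83.5% for Fgfr1. They were 72.7% and 97.4% for Fgfr2, 18.2% and 76.5% for Spry4, and 63.6% and 55.7% for Dusp6. For Spry2 they lay closer together, at 72.7% and 80.9%.

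**Figure D5:**
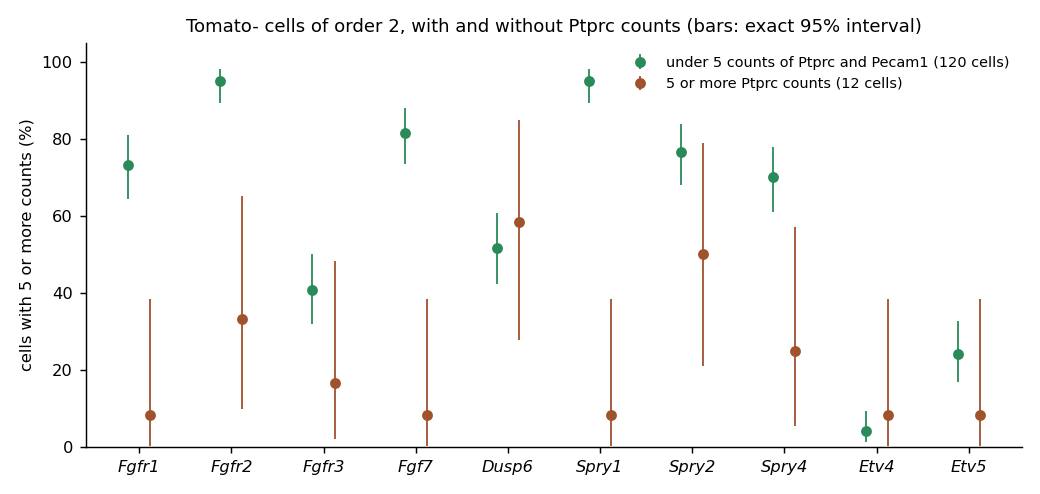
Share of Tomato- cells of order 2 with 5 or more counts of each gene (vertical axis, percent), for 120 cells with under 5 counts of Ptprc and Pecam1 and 12 cells with 5 or more Ptprc counts; bars are exact 95% intervals for counting error. Spry1 stands at 8.33% in the Ptprc cells and 95% in the others, and Dusp6 at 58.3% and 51.7%.

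Myeloid markers were themselves uneven between the groups, mainly in order 2. The 12 genes of the myeloid list summed to 99.5 to 24478 CPM over the Tomato- sets, the upper values being those of order 2, and to 8.26 to 142.9 CPM over the Tomato+ sets. In order 1 Ptprc was at 0 in all sets. Other blood lists overlapped between the groups. Erythroid genes summed to 60.6 to 201.8 CPM over the Tomato- sets and to 1.84 to 269.5 CPM over the Tomato+ sets. Lymphoid genes summed to 374 to 567 and to 10.1 to 703 CPM. The 10 genes of the endothelial list summed to 21 to 45.9 CPM over the Tomato- sets and to 5.97 to 1103 CPM over the Tomato+ sets. The upper value was that of P3 of order 1, where 2 of 38 cells held 3 of these genes at 5 or more counts. Once the cells in which Ptprc or Pecam1 reached 5 counts were removed, the order 2 ratio of Fgfr1 was -0.54, that of Spry1 0.07 and that of Etv5 0.32. Tomato+ cells of order 2 with 5 or more counts of Kit numbered 7. Spry1 and Spry2 reached 5 counts in all 7 (interval 59 to 100), against 90.2% and 75.6% of the other 41. Dusp6 did so in 28.6% (3.67 to 71) against 58.5% (42.1 to 73.7), and Etv5 in 57.1% (18.4 to 90.1) against 31.7%. Spry4 gave 85.7% against 68.3%, Fgfr1 71.4% against 63.4%, and Etv4 14.3% against 0%. Shares were lower in the 7 for Fgfr3 (28.6% against 46.3%), Fgfr2 (85.7% against 95.1%) and Fgf7 (71.4% against 80.5%). The intervals overlapped for all 10 genes, as in Fgfr2 with 42.1 to 99.6 against 83.5 to 99.4. A share of 14.3% is 1 of the 7 cells, so such gaps can rest on a single cell. How many other genes differ between these cells was not counted.

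From cell to cell the 10 genes moved little with one another. Ranked within title sets, the 36 pairs without Etv4 had Spearman correlations of -0.07 to 0.17 with a median of 0.05 over cells, highest for Fgfr3 with Spry1. Pooling all cells gave up to 0.36 for Fgfr2 with Spry1, a value that the differences between sets in genes per cell also enter. These are descriptions over 381 cells that share libraries, depth and amplification, and values this weak in sparse counts are no finding. By the same measure, the genes most like each member among 3905 compared were Cdh2 (0.35), Ltbp2 (0.29) and Ms4a4d (0.27) for Fgfr2, and Egr1 (0.27), Cdh2 (0.24) and Arrdc4 (0.23) for Spry1. They were Grem1 (0.26), Sfrp4 (0.24) and Esm1 (0.23) for Fgf7, H2-M3, Tuba1a and Gstm2 (0.22 each) for Fgfr1, and Nr4a3 (0.25), Dclk1 (0.22) and Susd2 (0.21) for Spry4. For Dusp6 they were Tm7sf3, Atg101 and Srpk1 (0.18 to 0.20), and for Spry2 Sftpc, Sept2 and Rnf2 (0.19 to 0.20). Fgfr3, Etv4 and Etv5 were met in too few cells for this comparison.

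Of 92 other genes of the pathway in 5 lists, 91 were in the table and 48 passed the low-value filter; 1 was higher and 0 were lower by the rule of size. The higher one was Frs2, which encodes the docking protein that couples FGF receptors to RAS, with 29 versus 12.4 CPM in order 1, 57.4 versus 35 CPM in order 2, and log2 ratios of 1.16 and 0.70. Frs2 no longer met the rule without its top cell in each group and order, without the set P2 of order 2, with both orders summed, without the cells bearing Ptprc or Pecam1 counts, or at a fold of 2. The 48 genes had median log2 ratios of 0.31 and 0.08 in the orders, against 0.02 and -0.01 for all genes tested.

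The most abundant genes of each list did not meet the rule. Of 15 receptors and co-receptors 8 passed the filter, and the heparan sulphate proteoglycan gene Sdc4 gave 233 versus 315 CPM in order 1 and 1103 versus 1315 CPM in order 2, Tomato+ first, while Sdc1 had log2 ratios of 0.89 and 0.34. In the RAS-ERK cascade 19 of 24 genes passed, among them the adaptor gene Shc1 (0.35 and -0.01) and Nras (-0.88 and -0.45). Among the other feedback inhibitors 8 of 15 passed, led by Errfi1, an inhibitor of the EGF receptor, with 3324 versus 1513 CPM in order 1 and 7176 versus 6841 CPM in order 2 (1.14 and 0.07). The phosphatase gene Dusp1 had ratios of -1.10 and 0.04. Of 16 ERK-responsive transcription genes 13 passed. Fos was the most abundant, with 8667 versus 9923 CPM in order 1 and 10359 versus 5606 CPM in order 2 (-0.20 and 0.89), and Jun gave -0.21 and 0.09.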

How the data were processed

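Each sample is 1 cell, and all cells stand in 1 table of 25000 genes. Per the file headers of order 1 and the values, the deposited values are expected counts; 82279 were not whole and were rounded. GRCm38, StringTie 1.3.3b, HTSeq 0.6.0 and HISAT come from the submitters' processing notes. Their roles, strand use and the annotation were not given in the sources used here. RNA, per the labels' protocols, was amplified before library preparation. Columns were matched by name to group, title order and set; what orders and sets stand for is not given. Cells with 1000 genes and 10000 counts were kept. Counts were summed per group and order and scaled to CPM; ratios are log2 of CPM + 1 (Python 3.11.15, numpy 2.4.6, scipy 1.17.1). Intervals are exact Poisson (sums) and exact Clopper-Pearson (shares); a count of 0 allows up to 3 counts. No doublet caller was run. Positions and exon lengths are from GENCODE M21. All 10 members were named, with every list gene past the rule of size, the 2 most abundant per list and the 3 likest genes per member. Members, lists and rules were chosen with earlier results of these data known. The calculations were tested on simulated data. Alternatives covered pseudocounts, scalings (TMM of edgeR 4.0.16, median ratio), filters and left-out sets or cells.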

Additional observations from a re-analysis of the deposited data

Results flagged for a closer look

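The ratio of Etv5 had opposite directions in the title orders, with a log2 ratio of Tomato+ over Tomato- of -1.04 in order 1 and 0.76 in order 2; the difference between the orders was not tested. Without the cell with the most Etv5 counts in each group and order, the ratios were -0.52 and 0.67. Without the set P1 of order 1 they were -3.48 and 0.76.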

How the results depend on the processing

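The number of the 10 genes past the rule of size, 1 (Fgfr3), was 0 with the mean of per-cell CPM, 0 without cells with Ptprc or Pecam1 counts, 0 without the set P1 of order 1, 0 without P2 or N2 of order 2 and 0 at a fold of 2, and 2 (with Dusp6) at a lower fold threshold. With both orders summed the 1 gene was Spry4, lower, and without cells bearing markers of another cell type it was Dusp6. The number of pathway genes, 1 (Frs2), was 0 without Ptprc or Pecam1 cells and at a fold of 2, 3 without P1 of order 1, without P1 or N2 of order 2 and with no filter on low values, 5 with both orders summed, 7 at a lower fold threshold, and 8 without cells with markers of another cell type. Without the top cell of each gene the 1 gene was Sos1, lower, and without P2 of order 2 it was Fgfrl1, higher. Over 22 alternatives, the mean log2 ratio ran from 0.03 to 1.56 for Fgfr3, from 0.02 to 1.73 for Spry1, from -0.10 to 1.71 for Dusp6 and from -1.37 to -0.25 for Spry2. Requiring 1500 genes at 5 counts per cell, chosen after the data were seen, gave Spry1 2.41 and 0.27 in the orders. Causes of these changes were not tested, and 1 sample per group limits every comparison.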
